A study of Mus musculus with 12 samples.

Results

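The genes described are 10 genes of MHC class I antigen presentation, measured in the striatum of 12 mice. They were taken as a named list, chosen with earlier results of these data known. Each was read from the probe sets of the array that the probe table pairs with that gene alone. All 10 were found, with 27 probe sets in all, among the 18193 genes and 45037 probe sets tested. The brightest probe set, that with the highest mean over the 12 mice, represents a gene. The mice were C57BL/6, and 6 were wild type and 6 were HdhQ92/Q92 knock-ins, in which a stretch of 92 CAG repeats taken from the human HD gene (its exon 1) sits in the mouse's own copy of the gene. They formed 4 groups of 3 mice with 1 array each. At 3 months (100 to 103 days) the wild-type group held 1 female and 2 males and the Q92 group 2 females and 1 male. At 18 months (567 to 604 days) both groups held 2 females and 1 male. The Q92 mice were homozygous, and the change is carried by every tissue, not by the striatum alone. Values are log2 signals made by RMA, which corrects background, sets arrays to a common distribution and gives 1 value per probe set, so that differences are relative to the other genes of an array. Mice are named by group and animal number.

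MHC class I molecules carry peptides from inside a cell to its surface, where CD8 T cells read them. H2-K1 and H2-D1 encode the classical class I heavy chains, and B2m encodes beta-2-microglobulin, the light chain that they share. Tap1 and Tap2 form the transporter that brings peptides into the endoplasmic reticulum, and Tapbp (tapasin) holds an empty class I molecule beside it. Psmb8, Psmb9 and Psmb10 are the catalytic subunits that replace Psmb5, Psmb6 and Psmb7 in the immunoproteasome, which cuts peptides suited to class I. Nlrc5 is the transactivator of class I genes. Interferons induce the whole set, and in healthy brain most neurons have little class I while microglia and endothelial cells have more.

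In the genome annotation GRCm38.p6, 7 of the 10 genes lie on chromosome 17, in or beside the MHC, from Tapbp (33919478 to 33929290) and H2-K1 (33996012 to 34000619) through Psmb9, Tap1, Psmb8 and Tap2 (34182030 to 34216321) to H2-D1 (35263094 to 35267497). B2m lies on chromosome 2 (122147687 to 122153082), and Nlrc5 (94434335 to 94527272) and Psmb10 (105935728 to 105938392) on chromosome 8. The sequences before the start sites are shown for the genes that stood highest above their 3-month level and for the stretch of 225 bases between Tap1 and Psmb9, which are read in opposite directions. They come from RefSeq, build GRCm38.p6, which gave a window of 250 bases before and 50 after the start for 8 of the 10 genes, and each ends at the base before the start its window is set on. For H2-K1 RefSeq gave 2 windows with starts 14 bases apart, both inside the gene span given above, so the stretch shown, before the first of these starts, lies within that span. Capitals mark the motifs searched.
H2-K1, chr17:34000348-34000597, minus strand: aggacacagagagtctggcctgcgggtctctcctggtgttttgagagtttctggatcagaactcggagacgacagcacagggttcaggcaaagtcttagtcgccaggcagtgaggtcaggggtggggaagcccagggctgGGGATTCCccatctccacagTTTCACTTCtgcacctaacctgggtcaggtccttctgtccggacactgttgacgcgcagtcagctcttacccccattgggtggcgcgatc
H2-D1, chr17:35262844-35263093, plus strand: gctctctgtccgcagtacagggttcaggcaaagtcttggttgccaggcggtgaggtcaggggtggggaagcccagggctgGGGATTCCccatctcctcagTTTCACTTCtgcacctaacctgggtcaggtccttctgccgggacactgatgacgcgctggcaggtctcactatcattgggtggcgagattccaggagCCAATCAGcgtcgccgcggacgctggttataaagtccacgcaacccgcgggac
B2m, chr2:122147437-122147686, plus strand: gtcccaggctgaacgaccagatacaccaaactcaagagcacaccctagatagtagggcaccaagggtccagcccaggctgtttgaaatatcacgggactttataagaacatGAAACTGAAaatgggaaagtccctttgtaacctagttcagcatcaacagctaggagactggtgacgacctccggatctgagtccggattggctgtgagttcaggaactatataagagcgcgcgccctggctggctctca
Psmb8, chr17:34197945-34198194, plus strand: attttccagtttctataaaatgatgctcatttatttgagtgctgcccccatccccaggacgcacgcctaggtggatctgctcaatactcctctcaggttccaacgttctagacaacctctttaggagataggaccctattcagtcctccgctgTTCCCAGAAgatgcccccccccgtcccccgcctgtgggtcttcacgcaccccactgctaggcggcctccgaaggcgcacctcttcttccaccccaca
Psmb9 (to the start of Tap1), chr17:34187331-34187555, minus strand: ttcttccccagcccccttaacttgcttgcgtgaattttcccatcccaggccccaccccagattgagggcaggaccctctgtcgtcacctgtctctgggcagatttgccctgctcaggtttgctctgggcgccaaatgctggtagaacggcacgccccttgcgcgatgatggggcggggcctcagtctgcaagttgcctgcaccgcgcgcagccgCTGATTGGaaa

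Each motif was searched on both strands of the 300-base windows. The members are counted by gene, with H2-K1 counted once for its 2 windows, while the shares over all genes count windows. The interferon regulatory factor core GAANNGAAA was found for 2 of the 8 genes, in the windows of H2-K1 and H2-D1, and in 7.52% of the 32851 windows of all genes. The interferon-stimulated response element core GAAANNGAA was found in that of B2m and in 8.56% of all windows. The gamma-activated site TTCNNNGAA lay in that of Psmb8 and in 8.30% of all windows. The core GGGATTCC of the NF-kappaB site known from class I enhancer A lay in those of H2-K1 and H2-D1 and in 1.06% of all windows. The Y box CTGATTGG was found for 4 of the 8 genes and in 4.10% of all windows. In H2-K1 it lay 9 to 16 bases after the start used here, outside the stretch shown, and across the start of the other window, and for Tap1 and Psmb9 it is the same 8 bases. None of these motifs overlapped another in a window, and a match describes the letters only. The H2-K1 and H2-D1 windows shared a run of 47 identical bases that holds the NF-kappaB core and not the regulatory factor core.

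Whole-striatum RNA was measured, so fewer cells of a type and less RNA per cell cannot be told apart. All 11 measured markers of striatal projection neurons lay above the 40th percentile of mean signal. All but Drd2 were lower in every aged Q92 mouse than in every aged wild-type mouse, against 7.51% of all genes. Choroid plexus markers, of tissue beside the striatum, stood apart in mouse Q92_3m_439 (mean log2 deviation 1.92 from the mean of the 12 mice) and mouse wt_18m_12 (1.73), against -0.81 to 0.48 in the other 10. An 18S ribosomal RNA control probe set ran from 5.28 to 11.18. The labels name no array date, so a batch that coincides with age cannot be told apart from age.

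The first question was how the genes differed between 3 and 18 months. By their brightest probe sets, H2-K1 and H2-D1 were higher in each of the 6 mice at 18 months than in each of the 6 at 3 months, and as a mean of both genotypes they rose 2.69-fold and 2.75-fold. B2m, their partner chain, had the same separation and stood 2.26-fold higher, at an adjusted p just over the threshold. All 10 genes had a higher mean at 18 months, by a median log2 difference of 0.55, where the median over all genes was -0.00266. The size of the difference varied between mice of the same age and genotype.

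In animal-number order, H2-K1 read 7.57, 7.62 and 7.66 in wild-type and 7.57, 7.67 and 7.52 in Q92 mice at 3 months. At 18 months it read 8.44, 9.46 and 9.92 in wild-type and 8.61, 8.41 and 9.37 in Q92 mice. On this probe set the young mice lay close together, and every aged mouse lay above them. The log2 difference between the ages was 1.43 (SE 0.22, 95% confidence interval 0.96 to 1.90, limma adjusted p = 0.0190). The other 3 H2-K1 probe sets did not pass, with log2 differences of 1.19 (adjusted p = 0.0777), 1.02 (adjusted p = 0.0800) and 0.08 (adjusted p = 0.718), and on each of them the ages overlapped. H2-D1 read 8.04, 8.08 and 8.30 in wild-type and 8.35, 8.21 and 8.04 in Q92 mice at 3 months, and 9.08, 9.96 and 10.51 and 9.16, 9.04 and 10.04 at 18 months. Again no aged mouse overlapped a young one on this probe set, and the log2 difference was 1.46 (SE 0.22, interval 0.98 to 1.94, limma adjusted p = 0.0190). Further H2-D1 probe sets passed with 1.56 (adjusted p = 0.0172) and 1.43 (adjusted p = 0.0243), without overlap. The rest did not pass, with 0.98 (adjusted p = 0.0505) and, at adjusted p from 0.116 to 0.952, 0.28, 0.22, 0.08, 0.01 and -0.08. Of these, only on the one with 0.28 did the ages not overlap. B2m read 9.35, 9.38 and 9.31 in wild-type and 9.39, 9.47 and 9.36 in Q92 mice at 3 months, and 10.14, 10.76 and 11.43 and 10.20, 9.67 and 11.14 at 18 months. Its lowest aged mouse, Q92_18m_25, lay just above the young mice. The log2 difference was 1.18 (SE 0.23, interval 0.67 to 1.68, adjusted p = 0.0505), and its second probe set passed with 1.30 (adjusted p = 0.0358).

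In limma 2 of the 10 genes passed an adjusted p of 0.05, both higher, where 0.390% of all genes passed higher. A total of 9 reached an unadjusted p under 0.05, against 17.8% of all genes. The groups did not overlap for 3 of the 10, each higher at 18 months, against 1.36% of all genes. Because the members were chosen with earlier results of these data known, the shares of all genes, here and below, are background with no test. Both calls ended without mouse Q92_3m_440 (adjusted p = 0.0501 each, 0 of 10 genes left) and that of H2-K1 without mouse Q92_3m_439 (adjusted p = 0.0545, 1 left), while without mouse Q92_18m_25 4 genes passed, B2m and Tapbp besides. The settings that left all mice in called 2 or 3 of the 10, and H2-K1 and H2-D1 passed in every one of them. With all probe sets of a gene averaged their log2 differences were smaller, 0.93 for H2-K1 (adjusted p = 0.0437) and 0.66 for H2-D1 (adjusted p = 0.0185). Without both mice wt_18m_17 and Q92_18m_66, a setting chosen after the values were seen, 3 passed (H2-K1, H2-D1 and B2m), with log2 differences of 1.13, 1.14 and 0.82.

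**Figure D1:**
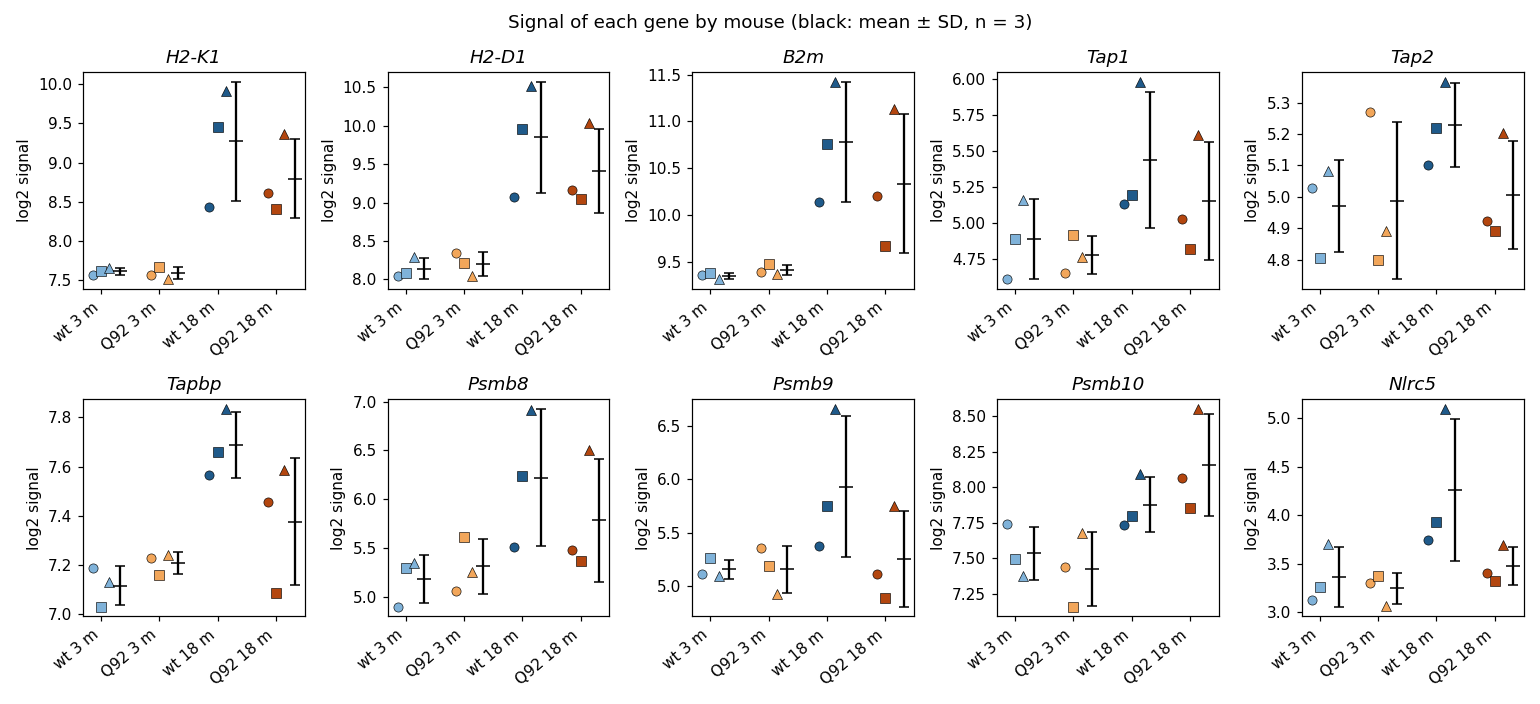
Log2 signal of each of the 10 genes (1 panel each, own vertical scale) in each mouse, by group, with the mean and SD of the 3 mice in black. In the H2-K1, H2-D1 and B2m panels all 6 mice of 18 months lie above all 6 of 3 months.

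The peptide-loading genes differed less. Tap1 read 4.61, 4.89 and 5.16 in wild-type and 4.65, 4.92 and 4.76 in Q92 mice at 3 months, and 5.13, 5.19 and 5.98 and 5.02, 4.82 and 5.61 at 18 months, with overlap in both genotypes (log2 difference 0.46, SE 0.17, adjusted p = 0.223). Tap2 ran from 4.80 to 5.27 at 3 months and from 4.89 to 5.37 at 18 months, the smallest difference of the 10 (0.14, SE 0.10, adjusted p = 0.503). Tapbp read 7.19, 7.03 and 7.13 in wild-type and 7.23, 7.16 and 7.24 in Q92 mice at 3 months, and 7.57, 7.66 and 7.83 and 7.46, 7.09 and 7.59 at 18 months. It had a log2 difference of 0.37 (SE 0.09, adjusted p = 0.0838), and only mouse Q92_18m_25 of the aged mice fell within the range of the young ones.

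Among the immunoproteasome subunits, Psmb8 read 4.90, 5.30 and 5.35 in wild-type and 5.06, 5.61 and 5.25 in Q92 mice at 3 months, and 5.51, 6.23 and 6.92 and 5.48, 5.36 and 6.51 at 18 months. Its log2 difference was 0.76 (SE 0.24, adjusted p = 0.172), and mice wt_18m_9, Q92_18m_11 and Q92_18m_25 overlapped the young mice. Psmb9 read 5.12, 5.26 and 5.09 in wild-type and 5.36, 5.19 and 4.93 in Q92 mice at 3 months, and 5.38, 5.75 and 6.66 and 5.12, 4.89 and 5.75 at 18 months (log2 difference 0.43, SE 0.20, adjusted p = 0.309). In the Q92 mice the ages overlapped. Psmb10 read 7.74, 7.50 and 7.37 in wild-type and 7.44, 7.16 and 7.68 in Q92 mice at 3 months, and 7.73, 7.80 and 8.10 and 8.06, 7.85 and 8.55 at 18 months (log2 difference 0.54, SE 0.13, adjusted p = 0.0916). Here the ages separated in Q92 mice and overlapped in wild-type mice. Their constitutive counterparts had log2 differences of 0.06 for Psmb5 (SE 0.06, adjusted p = 0.605), -0.00308 for Psmb6 (SE 0.06, adjusted p = 0.984) and 0.19 for Psmb7 (SE 0.07, adjusted p = 0.222).

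Nlrc5 was dim, the only one of the 10 below the 40th percentile of mean signal. It read 3.12, 3.26 and 3.71 in wild-type and 3.31, 3.37 and 3.06 in Q92 mice at 3 months, and 3.74, 3.93 and 5.09 and 3.41, 3.32 and 3.70 at 18 months. Mouse wt_18m_17 stood more than a log2 unit above every other mouse, and the aged Q92 mice overlapped the young ones (log2 difference 0.56, SE 0.20, adjusted p = 0.214).

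Within each genotype, none of the 10 genes passed in limma in either, where 0.0715% of all genes passed higher in wild-type and 0.0440% in Q92 mice. In wild-type mice 8 of 10 reached an unadjusted p under 0.05 (11% of all genes, 1997 of 18193) and 8 had non-overlapping ages, all higher at 18 months (9.76% of all genes). In Q92 mice 4 reached an unadjusted p under 0.05 (12.4% of all genes) and 4 had non-overlapping ages, H2-K1, H2-D1, B2m and Psmb10, all higher (10% of all genes, 1823 of 18193). H2-D1 had a log2 difference of 1.71 in wild-type (SE 0.31, adjusted p = 0.107) and 1.21 in Q92 mice (SE 0.31, adjusted p = 0.162). H2-K1 had 1.65 (SE 0.31, adjusted p = 0.114) and 1.21 (SE 0.31, adjusted p = 0.160). Without mouse wt_18m_9, 2 genes passed in wild-type mice, H2-K1 (2.07, adjusted p = 0.0128) and H2-D1 (2.10, adjusted p = 0.0183). The median over the 10 genes was 0.83 in wild-type and 0.42 in Q92 mice, and leaving out the highest aged mouse gave 0.48 in wild-type mice (without wt_18m_17) and 0.13 in Q92 mice (without Q92_18m_66), where 2 of the 10 genes then had a lower mean. In Q92 mice it was 0.23 with array weights and 0.26 with all probe sets of a gene averaged. The change with age itself was compared between the genotypes, and no gene of the 10 passed in limma (adjusted p from 0.946 to 0.980, 0% of all genes passed), with 1 gene, Tapbp, at an unadjusted p under 0.05 (5.80% of all genes).

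**Figure D2:**
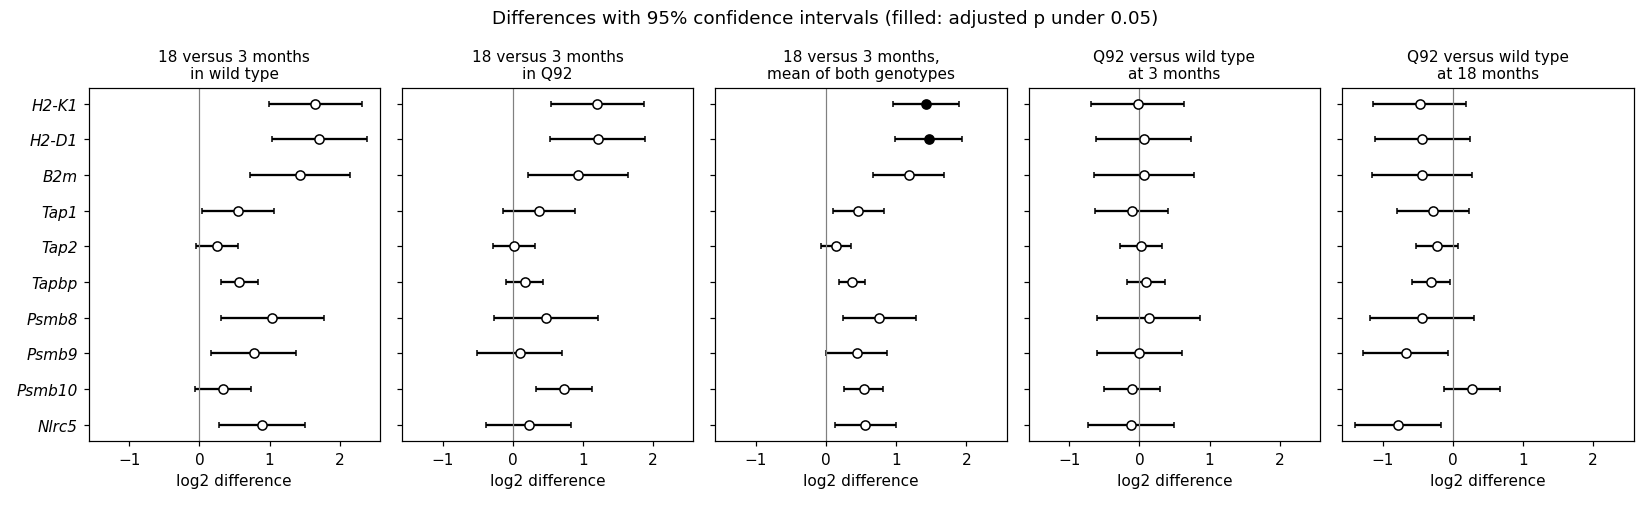
Log2 difference of each gene with its 95% confidence interval, in 5 comparisons on 1 horizontal scale, filled where the adjusted p was under 0.05. H2-K1 and H2-D1 are filled in the comparison of 18 with 3 months as a mean of both genotypes, and no symbol is filled in the other 4.

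The next question was whether Q92 mice differed from wild-type mice of the same age. At 3 months they did not differ detectably in any of the 10 genes by the brightest probe sets: 5 were higher and 5 lower, the differences ran from -0.12 for Nlrc5 to 0.13 for Psmb8, no gene passed in limma (0.0165% of all genes did) and 0 of 10 reached an unadjusted p under 0.05 (2.27% of all genes). The 95% confidence interval was -0.69 to 0.64 for H2-K1, -0.61 to 0.74 for H2-D1 and -0.65 to 0.78 for B2m. The fit shares 1 spread estimate per gene with the aged groups, in which these genes were more spread. The intervals at 3 months are therefore wider than the spread of the young mice alone gives. On the second B2m probe set (0.35) and on dimmer H2-K1 probe sets (0.34 and 0.25) every Q92 mouse lay above every wild-type mouse. These were the only ones of the 27 probe sets without overlap, and none of the 27 passed in limma. The share of all probe sets so separated at 3 months is not given here, so this separation is a description only. An exact test of 3 against 3 mice cannot go below p = 0.1, even with complete separation.

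At 18 months 9 of the 10 genes had lower means in Q92 mice and Psmb10 a higher one, with a median log2 difference of -0.44 (-0.00136 over all genes). None passed in limma, where 0.0770% of all genes did. An unadjusted p under 0.05 was reached by Nlrc5, Psmb9 and Tapbp (8.03% of all genes). The fit shares 1 spread estimate per gene with the young groups. In wild-type and Q92 mice, SDs of Psmb9 were 0.66 and 0.45 at 18 months against 0.09 and 0.22 at 3 months. Those of Nlrc5 were 0.73 and 0.20 against 0.31 and 0.16. For such genes the SE at 18 months is smaller than the spread of the aged mice alone gives, which limits these p-values and the intervals below. Nlrc5 differed by -0.78 (SE 0.28, adjusted p = 0.502) and was the 1 gene whose groups did not overlap, the 3 Q92 mice lying below the 3 wild-type mice (7.51% of all genes were so separated). Psmb9 differed by -0.67 (SE 0.28, adjusted p = 0.577) and Tapbp by -0.31 (SE 0.12, adjusted p = 0.552), with overlap. The difference was -0.47 for H2-K1 (interval -1.14 to 0.19, adjusted p = 0.769), -0.44 for H2-D1 (-1.11 to 0.24, adjusted p = 0.801), -0.44 for B2m (-1.16 to 0.27, adjusted p = 0.814) and 0.28 for Psmb10 (-0.12 to 0.68, adjusted p = 0.774). These differences leaned on single mice. The median was -0.13 without mouse wt_18m_17 and -0.20 without mouse Q92_18m_25, and -0.75 without mouse Q92_18m_66 and -0.78 without mouse wt_18m_9, with no gene past the threshold in any of these. It was -0.98 with age in days as a block, which rests on the 3 mice of 596 days. It was -0.67 with array weights and -0.21 with all probe sets of a gene averaged. The 18S control probe set read 5.64 to 5.75 in the wild-type and 6.21 to 8.31 in the Q92 mice at 18 months, and with its signal as a covariate the median was -0.48. Around the members, all 28 measured interferon-induced genes (median -0.53), 15 of 17 microglial markers (-0.31) and all 5 class II genes (-0.43) also had lower means in Q92 mice, with none past the threshold in limma and 5, 3 and 3 at an unadjusted p under 0.05. All 11 endothelial markers (median -0.17) and all 10 astrocyte markers (-0.23) had lower means too, with none past the threshold in limma and 3 and 2 at an unadjusted p under 0.05. Lower means were also seen for 7 of 9 oligodendrocyte (-0.07), 8 of 10 choroid plexus (-0.27), 9 of 14 T and NK cell (-0.03) and 2 of 5 B cell markers (0.00274). Of these lists too none passed in limma, with 3, 0, 2 and 0 at an unadjusted p under 0.05. The part of these cell markers and of the 18S signal in the difference was not tested. Not all lists were lower. All 7 proteasome activator and constitutive catalytic genes had higher means (median 0.07), as had 5 of 9 genes of peptide loading and trimming (0.05). Of 15 class I transcription factors 7 were higher (-0.00876), of 12 interferons and their receptors 7 (0.02), and of 9 other class I and class I-like genes 2 (-0.08). None of these passed in limma, with 1, 0, 1, 1 and 0 at an unadjusted p under 0.05.

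The spread between mice of 1 group was far larger at 18 than at 3 months. The median SD of the 10 genes was 0.14 in wild-type and 0.16 in Q92 mice at 3 months, close to the medians over all genes (0.13 in each). At 18 months it was 0.65 in wild-type and 0.43 in Q92 mice, while the medians over all genes were 0.11 and 0.13. Among all genes the median member lay at the 55.1 and 63.8 percentile of SD at 3 months and at the 99.2 and 96.0 percentile at 18 months, in wild-type and Q92 mice. The SD of H2-K1 was 0.05 and 0.08 in the young and 0.76 and 0.50 in the aged groups, and that of B2m 0.03 and 0.05 against 0.64 and 0.74. Tap2 had SDs of 0.15 and 0.25 at 3 months and 0.13 and 0.17 at 18 months, and was no more spread at the later age. In aged wild-type mice Tapbp (0.14) and Psmb10 (0.19) also had smaller SDs than the other 7 genes. The test uses 1 estimate of the spread per gene over all groups, which lies between these values. For genes more spread at 18 months, it makes genotype intervals too wide at 3 months and too narrow at 18 months.

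**Figure D3:**
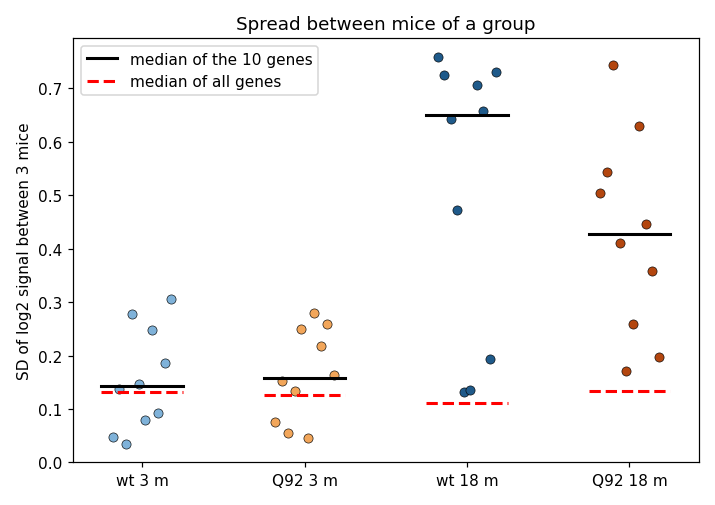
SD of log2 signal between the 3 mice of each group, 1 point per gene, with the median of the 10 genes (solid) and of all 18193 genes (dashed). The solid line lies near the dashed line at 3 months and well above it at 18 months.

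This spread had 1 order of mice. In the aged wild-type group mouse wt_18m_17 was highest, mouse wt_18m_12 in the middle and mouse wt_18m_9 lowest for all 10 genes. In the aged Q92 group mouse Q92_18m_66 was highest, mouse Q92_18m_11 in the middle and mouse Q92_18m_25 lowest for all 10. Of all genes, 12.9% had the first order, 21.9% the second and 3.73% both. These orders were read from the 10 genes themselves, so the shares are given as background with no test. At 3 months no mouse was highest in its group for more than 6 of the 10 genes. Averaged over the 10 genes as a log2 deviation from the mean of the 12 mice, the young mice lay between -0.43 and -0.28. The aged wild-type mice 9, 12 and 17 lay at 0.08, 0.50 and 1.08, and the aged Q92 mice 25, 11 and 66 at -0.16, 0.05 and 0.65.

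**Figure D4:**
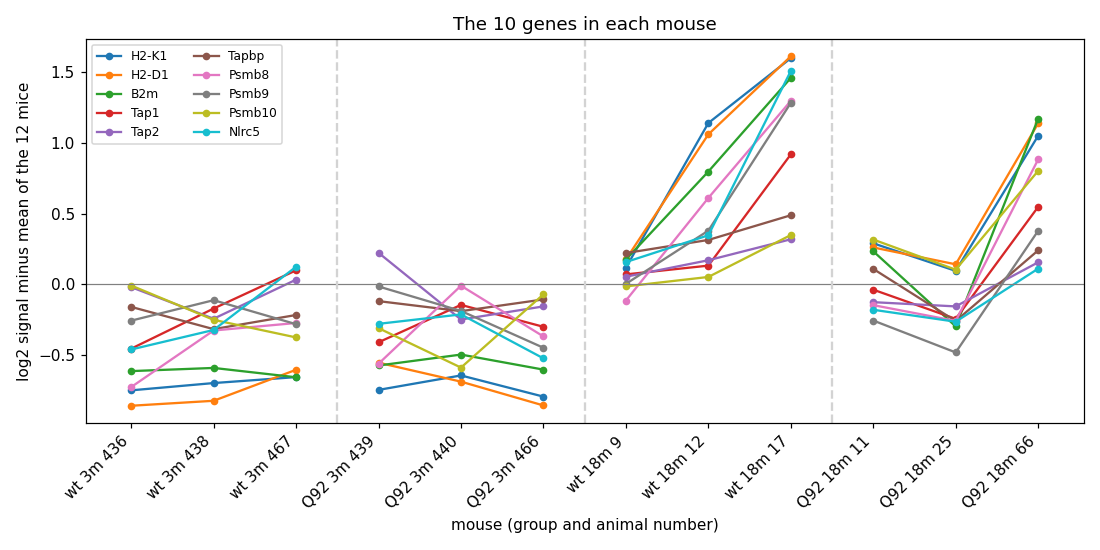
Log2 signal of each of the 10 genes minus its mean over the 12 mice, 1 line per gene within each group of mice, with mice on the horizontal axis. The lines cross at 3 months and run in the same order of mice in both groups at 18 months.

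A correlation over the 12 mice includes the age difference and does not measure the order of mice within a group. By it, the other probe sets of these genes followed the brightest to different degrees. Among those above the 40th percentile of mean signal, 3 further probe sets of H2-D1, 2 of H2-K1 and 1 of B2m had a Pearson r of 0.945 to 0.997 with the brightest over the 12 mice, and the second of Tapbp 0.745, as a description. The dim probe sets of Tap1 (means 2.81 to 3.41) had r of -0.32 to -0.09. Those of H2-D1 at or below the 40th percentile ran from -0.38 to 0.947, that of H2-K1 had 0.44 and that of Psmb8 0.39. As a mean of both genotypes 5 of the 27 probe sets passed, 3 of H2-D1, 1 of H2-K1 and 1 of B2m, all higher at 18 months (0.289% of all probe sets passed higher). The heavy chain genes are near-identical in parts, the table pairs 2 more probe sets with each of them together with other class I genes, and signal of one may come from another. On the second-brightest H2-K1 probe set the aged mouse Q92_18m_25 read 7.68, inside the range of the young mice on that probe set (7.32 to 7.82).

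By the rule of highest correlation with the mean of the 10 genes over the 12 mice, out of 12752 other genes, the 5 most alike were Ifit3 (r 0.983), Xaf1 (0.977), Ifit1 (0.975), Lgals3bp (0.974) and Trim30a (0.973). These values chose the genes and are a description. Without mice wt_18m_17 and Q92_18m_66, which lay farthest from the median, r was 0.915 to 0.968. Ifit3, an interferon-induced antiviral gene, read 5.52 to 5.89 in young wild-type and 5.56 to 5.90 in young Q92 mice, 6.76, 7.52 and 9.33 in aged wild-type mice 9, 12 and 17, and 6.62, 6.10 and 7.99 in aged Q92 mice 11, 25 and 66. The mice stood in the order given above for both aged groups.

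Genes around the pathway were read from lists. For the list counts by age given from here on, 17.8% of all genes reached an unadjusted p under 0.05 in limma. Of 28 measured interferon-induced genes, 26 had a higher mean at 18 months with a median of 0.88, none passed in limma and 23 reached an unadjusted p under 0.05. The largest difference was that of Ifit3 (1.64, adjusted p = 0.0844). Both orders of aged mice were shown by 25 of the 28. The list mean was -0.51 to -0.36 in the young mice, -0.11, 0.59 and 1.67 in aged wild-type mice 9, 12 and 17 and -0.37, -0.02 and 0.73 in aged Q92 mice 25, 11 and 66. The interferons and their receptors were otherwise. Of 12 genes 5 had a higher mean (median -0.02), and 3 reached an unadjusted p under 0.05. In limma 1 passed, Ifngr2, a chain of the interferon gamma receptor (0.48, adjusted p = 0.0194). Ifng itself had group means of 2.60 to 2.70, at the 4.08 percentile of mean signal.

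Of 15 measured transcription factors of class I genes, 12 had a higher mean (median 0.13) and none passed in limma, with 5 at an unadjusted p under 0.05. Irf9, an interferon regulatory factor, had the largest difference (0.80, adjusted p = 0.208), followed by Irf8 (0.45, adjusted p = 0.0503). Among 9 genes of peptide loading and trimming 8 had a higher mean (median 0.10), none passed and 3 reached an unadjusted p under 0.05. Erap1, an aminopeptidase that trims peptides, differed most (0.29, adjusted p = 0.132). Of 9 other class I and class I-like genes 6 had a higher mean (median 0.05), none passed and 2 reached an unadjusted p under 0.05, with Hfe (0.39, adjusted p = 0.292) first. Of 7 proteasome activator and constitutive catalytic genes 6 had a higher mean (median 0.08), none passed and 2 reached an unadjusted p under 0.05, with the activator gene Psme1 (0.48, adjusted p = 0.136) first.

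Markers of other cells moved with these genes in part. Of 17 microglial markers, 16 had a higher mean at 18 months (median 0.43). The leucocyte phosphatase gene Ptprc passed in limma (1.06, adjusted p = 0.0493), and 10 reached an unadjusted p under 0.05. The microglial list mean was -0.40 to -0.09 in the young mice, 0.19 to 0.67 in aged wild-type and -0.20 to 0.56 in aged Q92 mice. It was highest in mice wt_18m_17 and Q92_18m_66, and 8 of the 17 markers showed both orders of mice (3.73% of all genes). Of 5 MHC class II genes, carried by antigen-presenting cells, 4 had a higher mean (median 0.24, none passed in limma, 2 at an unadjusted p under 0.05). Their list mean was 1.25 in mouse wt_18m_17 and -0.41 to 0.19 in the other 11 mice. H2-Aa differed most (0.88, adjusted p = 0.233). The part of these markers in the class I difference was not tested.

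Lymphocyte markers did not stand higher. Of 14 T and NK cell markers 3 had a higher mean at 18 months (median -0.11), none passed in limma, 4 reached an unadjusted p under 0.05, and 10 of the 14 lay at or below the 40th percentile of signal. All 5 measured B cell markers lay at or below it, and all had a lower mean at 18 months (median -0.16, none passed, 0 at an unadjusted p under 0.05). The T and NK cell list mean ran from -0.09 to 0.17 in the young, from -0.04 to 0.04 in aged wild-type and from -0.12 to -0.08 in aged Q92 mice. RMA gives no value of 0, so a dim probe set does not show that a gene is off. Of 11 endothelial markers 4 had a higher and 7 a lower mean at 18 months (median -0.05). None passed in limma, 2 reached an unadjusted p under 0.05, and the list mean was -0.17 to 0.15 in the aged mice. Of 10 astrocyte markers 5 had a higher and 5 a lower mean at 18 months (median 0.00981). One, the intermediate filament gene Gfap, passed (1.44, adjusted p = 0.0124), and 3 reached an unadjusted p under 0.05. The list mean was -0.22 to 0.25 in the aged mice.

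**Figure D5:**
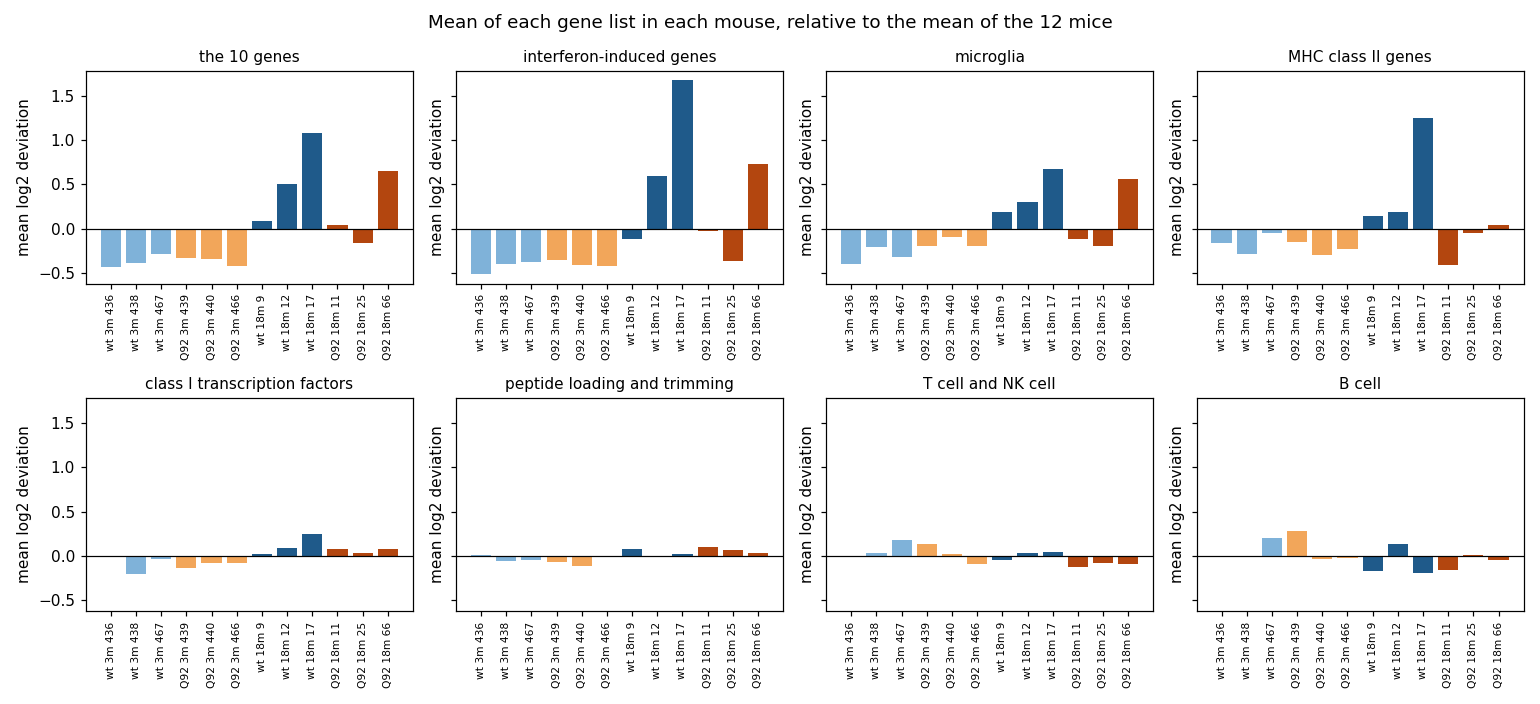
Mean log2 deviation from the mean of the 12 mice for 8 gene lists, 1 bar per mouse and coloured by group, on 1 vertical scale. The interferon-induced and microglial lists are highest in mice wt_18m_17 and Q92_18m_66, as are the 10 genes, and the T and NK cell and B cell lists stay between -0.19 and 0.28.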

How the data were processed

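As deposited, each value is a log2 signal of an Affymetrix probe set, for which the submitters' processing notes name RMA and affy, without versions; whether all arrays were normalised at once is not stated there. Precision is limited by the number of arrays. With limma 3.58.1 (R 4.3.3), 1 model with the 4 group means was fitted over the 12 arrays (8 residual, 4.50 prior degrees of freedom), tested on simulated data, and 6 contrasts were adjusted by Benjamini-Hochberg over 45037 probe sets, without 64 control probe sets. Several contrasts share mice. The probe table gave 34945 probe sets 1 gene, 932 several and 9160 none, and RefSeq held the gene identifier of 34741.

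The members and lists were chosen with earlier results of these data known, so lists get counts and a median only. Named genes were the 10, Psmb5 to Psmb7, the 5 most alike, and from each list those that passed or else the largest differences. Oligodendrocyte and erythrocyte markers, also listed, had median age differences of -0.02 and -0.09, with none past the threshold in limma and 1 and 0 at an unadjusted p under 0.05. Genes with no probe set of their own were not analysed here.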

Additional observations from a re-analysis of the deposited data

How the results depend on the processing

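Settings tried were quantile normalisation, a common array median, dim probe sets left out (Nlrc5 then has no value), a trended robust prior, array weights, sex, 18S signal or an age-in-days block as covariates (the last for genotype alone), only the arrays compared (within 1 genotype or age), all probe sets of a gene averaged, 1 probe set per gene, each mouse left out and, chosen after seeing the data, mice wt_18m_17 and Q92_18m_66 left out together. No paired analysis was possible because the groups share no animal numbers. Leaving out 1 mouse gave 0 to 4 of the 10 genes past the threshold between ages over both genotypes and 0 to 2 in wild-type mice. The counts for Q92 mice, for genotype at either age and for the change with age stayed at 0 in every setting run. For age over both genotypes and in wild-type mice, and for genotype at 18 months, no gene turned direction.

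At 3 months, where differences were near 0, the sign turned for Psmb9 with quantile normalisation (0.00124), Tap2 with array weights (-0.041), B2m with 18S (-0.037) and H2-K1 with probe sets averaged (0.18). With 1 mouse left out, differences at 3 months spanned -0.069 to 0.0059 for H2-K1, -0.010 to 0.14 for H2-D1, -0.25 to 0.028 for Tap1, -0.13 to 0.11 for Tap2, -0.023 to 0.25 for Psmb8, -0.10 to 0.12 for Psmb9, -0.24 to 0.021 for Psmb10 and -0.24 to 0.053 for Nlrc5. Likewise the age difference in Q92 mice spanned -0.080 to 0.16 for Tap2 and -0.15 to 0.28 for Psmb9, and the Tap1 change with age -0.41 to 0.10. Tap2 in Q92 mice turned to -0.012 with 18S and to -0.080 without both mice, and Psmb9 to -0.15 without both. The cause was not tested. Dim probe sets such as that of Nlrc5 limit what can be seen.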
